A study of Rattus norvegicus with 9 samples.

Results

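The 10 genes Alx1, Zic1, Meis2, Nr2f1, Twist1, Twist2, Dlx3, Dlx5, Msx1 and Msx2 encode transcription factors that pattern the head and its neural crest. They were chosen by name, with earlier results of these data known. Each gene was taken with every probe set whose platform annotation named that gene alone, which gave 13 probe sets of 31042 tested and 10 genes of 14217. The signals came from whole bone of male CD rats of 110 g, 4 arrays of skull (calvaria, the vault of the skull) and 5 arrays of limb (ulna, a long bone of the forelimb). The labels name no treatment in either group. The study's methods describe RNA taken from pools of rats after soft tissue, skull sutures and the ends of the long bones had been cut away, so a replicate here was a pool of animals, and whole bone was measured with the marrow and other cells it held. Fewer cells of a type and less RNA per cell cannot be told apart in such samples. No source gave the age of the rats.

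The skull vault forms by ossification within a membrane from cranial neural crest and cranial mesoderm, whereas the ulna forms on a cartilage model from limb bud mesoderm. Neural crest cells leave the dorsal neural tube, and those of the head carry no Hox code in the most anterior part, where factors such as the ones described here mark position instead. Alx1 (Cart1) is a paired-type homeodomain factor of frontonasal and skull vault mesenchyme, Zic1 a zinc finger factor of the neural plate border, Meis2 a TALE homeodomain cofactor of cranial crest and heart outflow tract, and Nr2f1 (COUP-TFI) an orphan nuclear receptor. Twist1 and Twist2 are basic helix-loop-helix factors that hold mesenchyme in an immature state, and loss of 1 copy of Twist1 fuses the coronal suture. Dlx3, Dlx5, Msx1 and Msx2 are homeodomain factors of the branchial arches and of osteoblasts in any bone.

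One label field of ulna 1, 2, 3 and 4 named the calvaria, against their titles and source names, while that of ulna 5 named limb bone. Hoxa9, a gene of trunk and limb that cranial bone lacks, had a signal of 1.82 to 4.80 on the skull arrays and of 60.4 to 79.0 on the limb arrays. Tbx5, which marks the forelimb, had 0.949 to 4.03 in skull and 16.3 to 30.4 in limb. All 5 ulna arrays therefore carried limb genes, and the differences of the 10 genes and of the pairs were also taken with ulna 5 as the whole limb group. All 7 limb genes listed were called lower in skull, with the brightest, Hoxa10 and Shox2, at log2 differences of -3.81 ± 0.43 and -2.88 ± 0.18 (SE). Col1a1 and Bglap, which mark bone-forming cells, had mean signals of 8006 ± 644 and 7555 ± 880 (SD, n = 4) in skull and of 7098 ± 1277 and 6643 ± 1034 (SD, n = 5) in limb. These were the brightest of 9 osteoblast genes, whose median log2 difference was 0.37. Of the 9, Ibsp was called higher in skull at 1.06 and 0 were called lower. Spp1, Alpl and Dmp1 were higher by 0.76, 0.53 and 0.50, under 2-fold (limma adjusted p = 0.00126, 0.00534 and 0.0152).

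The promoters of Alx1, Twist1 and Nr2f1 are shown because these are the genes with a significantly higher signal in skull for which RefSeq promoter sequence (GRCr8) was at hand. Each line gives the 250 bases upstream of the annotated start, 5′ to 3′ on the gene's own strand, and capitals mark any match to the E-box CANNTG, which Twist factors bind, or to the homeodomain core TAAT, read on both strands as TAAT or ATTA. The windows lie at chr7:40063779-40064028 on the minus strand, chr6:56402059-56402308 on the plus strand and chr2:9785925-9786174 on the minus strand.
Alx1: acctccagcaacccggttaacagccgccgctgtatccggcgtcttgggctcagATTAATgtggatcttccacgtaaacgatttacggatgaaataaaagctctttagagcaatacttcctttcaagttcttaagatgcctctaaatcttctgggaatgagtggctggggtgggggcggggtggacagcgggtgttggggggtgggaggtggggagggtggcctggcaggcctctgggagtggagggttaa
Twist1: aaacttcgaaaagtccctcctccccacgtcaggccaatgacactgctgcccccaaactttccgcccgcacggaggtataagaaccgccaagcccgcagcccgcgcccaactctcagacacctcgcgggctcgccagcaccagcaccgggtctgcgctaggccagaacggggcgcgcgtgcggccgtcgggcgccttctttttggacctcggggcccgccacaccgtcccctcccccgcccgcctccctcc
Nr2f1: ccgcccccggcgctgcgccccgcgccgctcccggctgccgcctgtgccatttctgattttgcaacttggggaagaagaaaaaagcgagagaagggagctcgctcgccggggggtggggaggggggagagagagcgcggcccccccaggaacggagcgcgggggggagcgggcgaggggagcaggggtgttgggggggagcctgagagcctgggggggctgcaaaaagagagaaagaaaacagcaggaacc
The Alx1 window held 2 overlapping TAAT matches and no CANNTG. Neither motif occurred in the windows of Twist1 and Nr2f1. Promoters were given for 6 of the 10 genes, and among them 1 held CANNTG (Msx2) and 2 held TAAT (Alx1 and Msx1). Over all 33469 promoters of the same length, 65.5% held CANNTG and 57.0% held TAAT. The G and C share was 54.8% in Alx1 and 69.2% in both Twist1 and Nr2f1, against a median of 51.2% over all promoters.

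Of the 13 probe sets, 8 were called higher in skull and 0 lower, a call being an adjusted p below 0.05 in limma with at least a 2-fold difference. They belonged to 7 genes, Alx1, Zic1, Meis2, Nr2f1, Twist1, Dlx3 and Dlx5. Over all probe sets tested, 2.89% were called higher and 3.36% lower in skull. Each of these 8 had its lowest skull array above its highest limb array, which held for 9.53% of all probe sets with skull higher. The mean signal was higher in skull for 12 of 13, the exception being 1 of 3 probe sets for Msx2. The median log2 difference, skull minus limb, was 1.15 over the 13 probe sets and -0.01 over all. Counting each gene by its brightest probe set gave 7 of 10 genes called higher and 0 lower, against 3.47% higher and 4.31% lower of all genes. The study had listed these 7 genes as higher in skull (Alx1 as Cart1). It had also listed Twist2 and Msx2 as found only in skull in rat bone, and neither was called here. Since the 10 genes were chosen with such results known, the counts are no independent comparison with all probe sets.

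**Figure D1:**
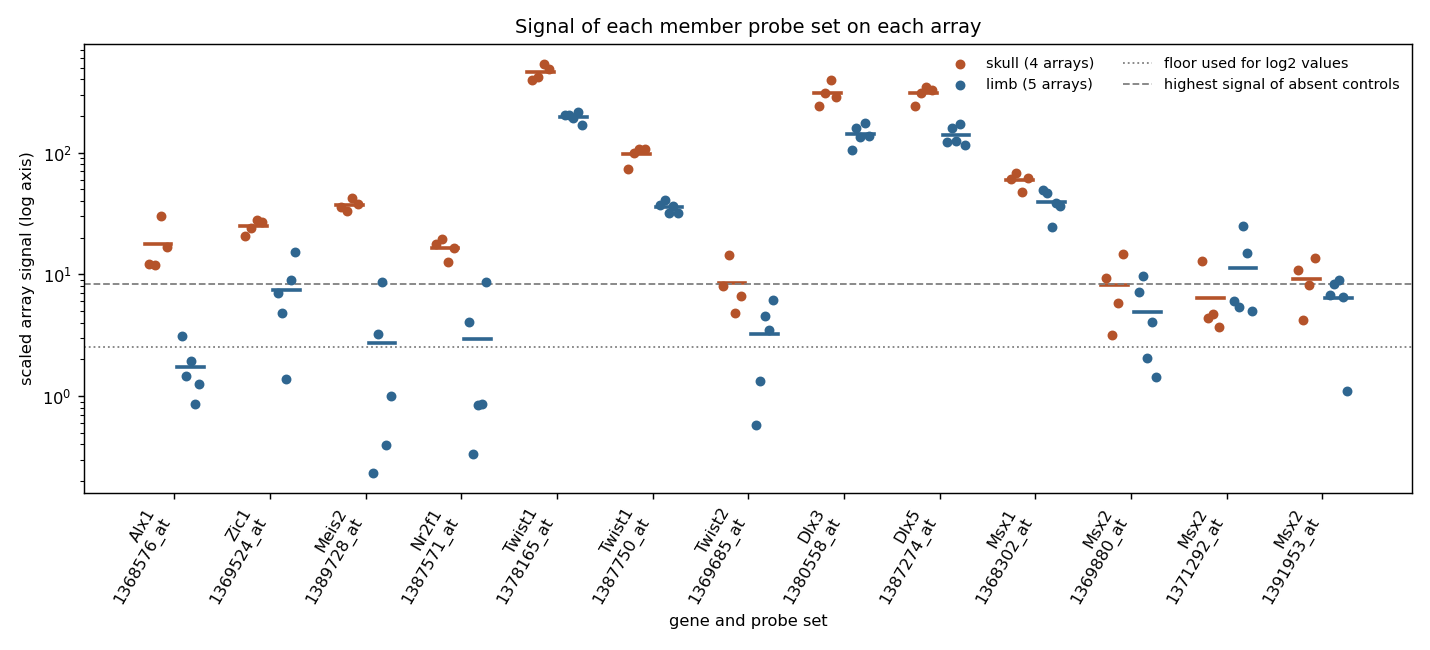
Scaled signal (log axis) of the 13 probe sets on each array, skull in orange and limb in blue, with the mean of each site as a bar. The dotted line is the floor of 2.51 and the dashed line the highest signal of absent control sequences, 8.34. Twist1, Dlx3 and Dlx5 lay far above both lines at both sites, whereas most limb signals of Alx1, Meis2 and Nr2f1 lay below the dashed line.

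The genes fell into a dim and a bright class, and 2 levels served as a guide to background. Control probe sets for sequences that no rat tissue holds reached at most 8.34 on any array. Olfactory and vomeronasal receptor probe sets, a stricter guide chosen after seeing the data, had a median signal of 5.32 and reached 24.4 on 1 array. Signals below 2.51, the 10th percentile of all, were set to that floor before log2 values were taken, so fitted folds of the dim genes depend on it.

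On this floor Meis2 had the largest log2 difference of the 10 genes, but with the floor at the receptor maximum it had 0.60, below Twist1, Dlx3 and Dlx5. Its signal was 35.9, 33.2, 42.0 and 37.9 on calvaria 1 to 4, and 0.234, 3.26, 8.67, 0.392 and 0.995 on ulna 1 to 5. Every skull array stood above both background guides, and 4 of 5 limb arrays were at or below the absent controls. The fitted log2 difference was 3.45 ± 0.39 (SE, n = 4 and 5, limma adjusted p = 0.00031), and with the limb arrays set no lower than the absent controls the fold was 4.42.

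Alx1, whose loss in mice leaves the skull vault open, had signals of 12.1, 11.9, 30.1 and 16.9 on the skull arrays. In limb it had 3.12, 1.47, 1.93, 0.865 and 1.25, below the absent controls on all 5 arrays. The sites did not overlap, and calvaria 3 was the highest skull array by a wide margin. The log2 difference was 2.65 ± 0.29 (SE, n = 4 and 5, limma adjusted p = 0.000253), and with the floor at the absent controls the fold was 1.97. Of the skull signals, 3 of 4 lay below the receptor maximum of 24.4, and with that floor the log2 difference was 0.075.

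Nr2f1 gave 17.8, 19.4, 12.6 and 16.3 in skull and 4.07, 0.336, 0.845, 0.856 and 8.69 in limb. Its limb signal was at or below the absent controls on 4 arrays and closest to skull on ulna 5. The log2 difference of Nr2f1 was 2.20 ± 0.40 (SE, n = 4 and 5, limma adjusted p = 0.00388), and the fold was 1.94 with the floor at the absent controls. All 4 skull signals lay below the receptor maximum, so that floor left no difference.

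Zic1 had signals of 20.7, 24.0, 27.9 and 26.7 in skull and 6.96, 4.77, 1.38, 9.05 and 15.2 in limb. Here 2 limb arrays, ulna 4 and ulna 5, lay above the absent controls. Its log2 difference was 1.93 ± 0.48 (SE, n = 4 and 5, limma adjusted p = 0.0187), 2.58-fold with the floor at the absent controls, and this was the call with the largest adjusted p. Without calvaria 3 its adjusted p was 0.0516.

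Twist1 was bright and was read by a pair of probe sets. The first, 1378165_at, gave 392, 416, 530 and 488 in skull and 205, 202, 193, 213 and 169 in limb. The second, 1387750_at, gave 72.8, 99.6, 107 and 107 in skull and 37.1, 40.8, 32.0, 36.1 and 31.8 in limb. Both separated the sites with no overlap and with a spread of 8.72% to 16.9% of the mean within a site. The log2 differences were 1.21 ± 0.10 (SE, limma adjusted p = 8.35e-05) and 1.43 ± 0.14 (SE, limma adjusted p = 0.000157), both on 4 and 5 arrays, and these were the smallest errors among the 13 probe sets.

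Twist2, the close relative of Twist1 in dermis and bone, was dim at both sites. It had signals of 8.03, 14.5, 4.78 and 6.69 in skull and 0.579, 1.33, 4.51, 3.47 and 6.18 in limb. The sites overlapped, and 3 of 4 skull arrays and all 5 limb arrays were at or below the absent controls. The log2 difference of 1.11 ± 0.38 (SE, n = 4 and 5, limma adjusted p = 0.0728, 95% interval 0.24 to 1.98) was not called. It passed the threshold without calvaria 3 or without ulna 5, at a smallest adjusted p of 0.0437, and under quantile normalization or array weights.

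Dlx5, which acts in osteoblast differentiation as well as in the jaw, had signals of 241, 311, 346 and 328 in skull and 123, 159, 124, 171 and 114 in limb. Its paralog Dlx3, mutated in a disorder of hair, teeth and thick skull bone, had 240, 307, 395 and 287 in skull and 105, 161, 134, 176 and 136 in limb. Neither gene overlapped between sites. The log2 differences were 1.15 ± 0.15 (SE, n = 4 and 5, limma adjusted p = 0.000666) for Dlx5 and 1.11 ± 0.18 (SE, n = 4 and 5, limma adjusted p = 0.00201) for Dlx3. Without calvaria 3, the highest skull array for both, the difference of Dlx3 was 0.98 and fell short of 2-fold.

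Msx1 and Msx2, targets of BMP signalling in crest and suture mesenchyme, were not called. Msx1 gave 60.3, 67.8, 47.3 and 61.6 in skull and 49.4, 46.2, 24.3, 38.2 and 36.5 in limb. Only calvaria 3 came down into the limb range, and the log2 difference was 0.64 ± 0.21 (SE, n = 4 and 5, limma adjusted p = 0.0675, 95% interval 0.15 to 1.12). The 3 probe sets of Msx2 were dim and disagreed in sign. Their signals ran from 3.15 to 14.6 in skull and from 1.09 to 24.7 in limb, and their log2 differences were 0.66 ± 0.56, -0.69 ± 0.58 and 0.48 ± 0.46 (SE, limma adjusted p = 0.476, 0.481 and 0.544). The 95% interval of the first ran from -0.59 to 1.92, and all 3 intervals reached past 2-fold, so a difference of that size in Msx2 was not detectable at these signals.

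**Figure D2:**
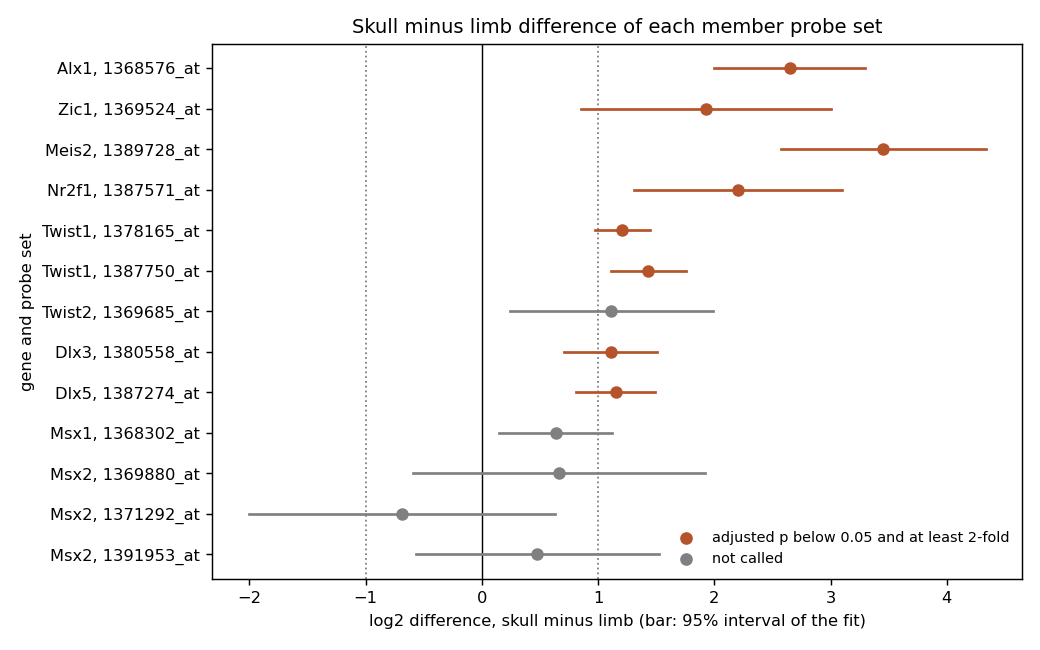
Log2 difference, skull minus limb, of each probe set with its 95% interval from the limma fit, orange where called and grey where not; dotted lines mark 2-fold. The 8 called probe sets lie between 1.11 and 3.45, and the intervals of the 3 Msx2 probe sets cross 0.

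Skull and limb arrays did not vary in step across the genes. Calvaria 3 was the highest skull array for 7 of 13 probe sets, with all 3 of the brightest (1378165_at of Twist1, Dlx3 and Dlx5) among them, yet it was the lowest for Nr2f1, Twist2 and Msx1. Calvaria 1 was the lowest skull array for those 3 brightest. In limb, ulna 4 was the highest for the same 3, and ulna 5 was the lowest for 6 of 13 probe sets while it was the highest for Zic1, Nr2f1 and Twist2.

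With ulna 5 as the whole limb group, 2 of 13 probe sets were called, Meis2 at a log2 difference of 3.89 (limma adjusted p = 0.018) and 1378165_at of Twist1 at 1.43 (limma adjusted p = 0.0485). In that fit the single limb array was assumed to vary like the skull arrays. The differences of Alx1, 1387750_at of Twist1, Dlx3 and Dlx5 stayed at 2.71, 1.59, 1.15 and 1.41 without passing the test, and 1.16% of all probe sets were called higher. Zic1 and Nr2f1 came to 0.70 and 0.91 there, under 2-fold.

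Among floors and scalings, the calls of the dim genes moved most with the floor and those of the bright genes with a scaling to osteoblast genes. With deposited signals or quantile normalization the bright genes kept their calls. A floor at the absent controls left 6 calls, with Alx1 at 0.98 and Nr2f1 at 0.96 just under 2-fold, and 2.45% of all probe sets were called higher. A floor at the receptor maximum left 4 calls, those of Twist1, Dlx3 and Dlx5, with 1.91% of all called higher. The second floor lies above most dim signals, and Meis2 alone among the dim genes kept a log2 difference, of 0.60, with an adjusted p below 0.05. When arrays were instead scaled to the mean of 9 osteoblast genes, an alternative added after seeing the data, the median of all probe sets moved to -0.40, and 295 probe sets (0.95%) were called higher and 3000 lower. This scaling lowers the log2 difference of any probe set above the floor on every array by 0.44, the mean difference of that list. The differences of both classes became smaller, and those of the bright genes, just above 2-fold before, came under it. Twist1 then stood at 0.77 and 1.00 (0.996 before rounding), Dlx5 at 0.72 and Dlx3 at 0.67, all with an adjusted p below 0.05 and all under 2-fold. Alx1, Zic1, Meis2 and Nr2f1 kept their calls at 2.38, 1.51, 3.15 and 1.90. The osteoblast genes themselves had a mean difference of 0.44, with 1 of 9 called higher (Ibsp), and their part in the differences of Twist1, Dlx3 and Dlx5 was not tested.

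**Figure D3:**
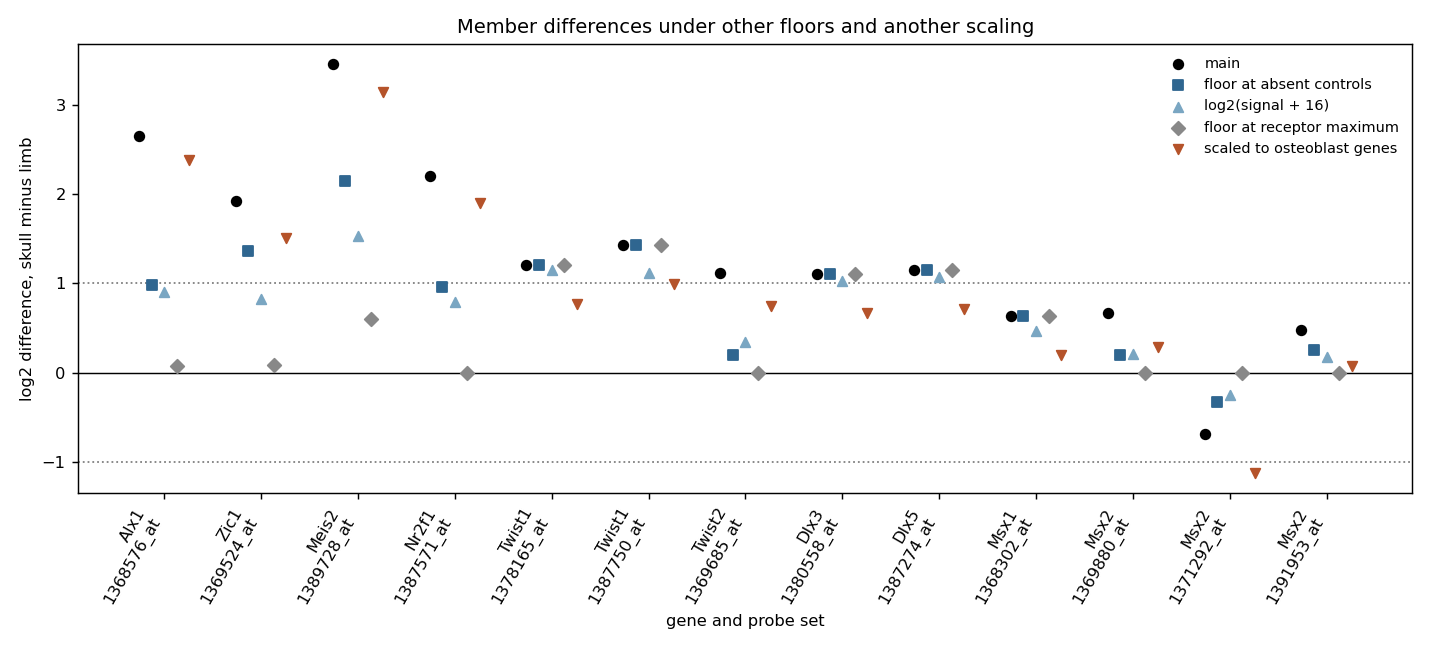
Log2 difference, skull minus limb, of each probe set under the main scale, 3 other treatments of low signals and a scaling to osteoblast genes; dotted lines mark 2-fold. Alx1 falls from 2.65 to 0.08 at the receptor floor, while Dlx5 stays at 1.15 there and is 0.72 under the osteoblast scaling.

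Related genes were set against each other to ask whether the skull difference was shared within a family. The change in log2 ratio between sites was tested for 6 pairs by a two-sided exact permutation over the 126 splits of the arrays, with the smallest p being 0.00794. Meis2 rose against Meis1, another TALE factor of limb and blood progenitors, by 4.20 ± 0.36 (SE, exact p = 0.00794, adjusted p = 0.0238). The limb signal of Meis2 sets this size through the floor, and the change was 2.89 with the floor at the absent controls, 2.64 with that at the 25th percentile and 2.18 with log2(signal + 16), past the threshold each time. Meis1 itself was lower in skull, with signals of 87.8 ± 9.04 (SD, n = 4) against 147 ± 10.4 (SD, n = 5), a log2 difference of -0.75 ± 0.08 (limma adjusted p = 0.000317) that was under 2-fold and without overlap.

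Zic1 rose against Zic4 by 1.47 ± 0.41 (SE, exact p = 0.00794, adjusted p = 0.0238), and by 0.91 with the floor at the absent controls, but this rested on which Zic4 probe set was read. The brighter, 1392677_at, had a log2 difference of 0.46 and was not called. The other, 1380514_at, had mean signals of 13.3 in skull and 2.55 in limb and was called at 2.03 ± 0.39 (SE, limma adjusted p = 0.0055). Against that probe set the change in the Zic1 ratio was -0.10 (exact p = 0.897).

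Nr2f1 changed against Nr2f2 (COUP-TFII) by 1.42 ± 0.44 (SE, exact p = 0.0317, adjusted p = 0.0635), which did not pass, and by 0.17 (exact permutation, adjusted p = 0.590) with the floor at the absent controls. Nr2f2 was higher in skull too, by 0.78 ± 0.18 on its brightest probe set (limma adjusted p = 0.0148, under 2-fold) and by 1.13 ± 0.24 on 1370063_at (limma adjusted p = 0.00957), which was called. Its dim probe set 1395863_at had 0.41, with mean signals of 13.3 in skull and 10.5 in limb, and was not called. The change in the Nr2f1 ratio was 1.08 against 1370063_at (exact p = 0.0714) and 1.79 against 1395863_at (exact p = 0.0159). Dlx5 and Dlx3 differed in their change by 0.043 ± 0.11 (SE, exact p = 0.690), the narrowest estimate of the 6 pairs. The change for Twist1 over Twist2 was 0.10 ± 0.51 (SE, exact p = 0.849) with the low floor, and 1.01 (exact permutation, adjusted p = 0.0159) with the floor at the absent controls. For Msx1 over Msx2 it was 1.32 (exact p = 0.143) with the brightest Msx2 probe set and -0.0271 and 0.16 with the others. With ulna 5 as the whole limb group, where no exact test could pass, the changes were 4.80 for Meis2 over Meis1, 0.82 for Zic1 over Zic4, 1.09 for Twist1 over Twist2, 0.26 for Dlx5 over Dlx3, 0.51 for Msx1 over Msx2 and 0.05 for Nr2f1 over Nr2f2.

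**Figure D4:**
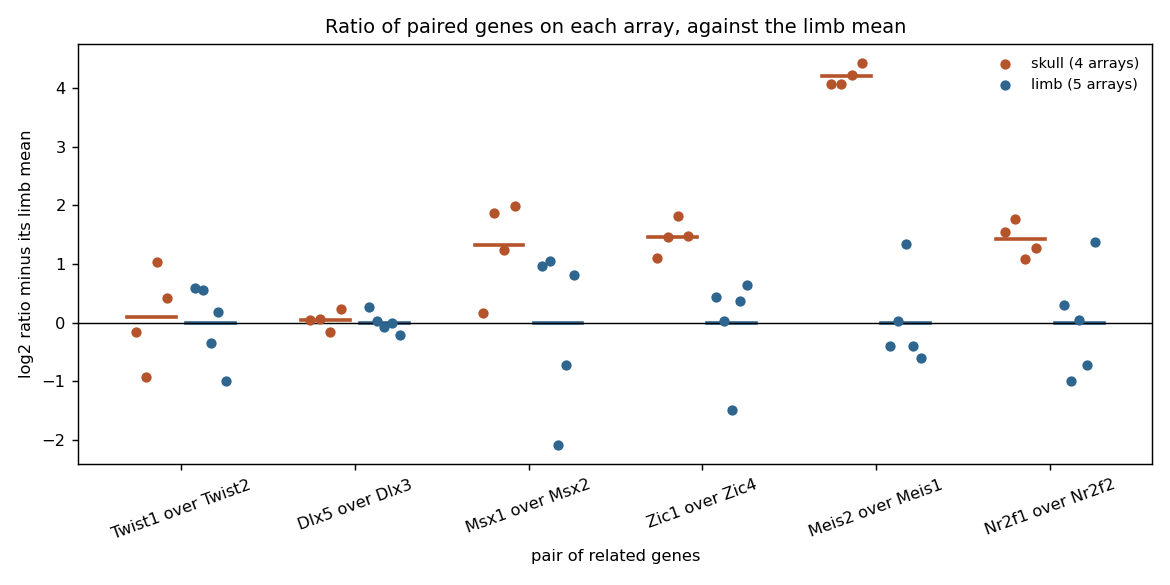
Log2 ratio of each pair of related genes on each array, minus the mean of the limb arrays, with site means as bars (skull orange, limb blue). For Meis2 over Meis1 all 4 skull arrays lie above all 5 limb arrays with a mean shift of 4.20, and for Dlx5 over Dlx3 the sites share 1 range.

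Of 30 relatives of the 10 genes (paralogs, TALE and bHLH partners, Id proteins), 22 were measured. Read by the brightest probe set, 0 were called higher and 0 lower, with a median log2 difference of 0.34. At an adjusted p below 0.05 but under 2-fold, Meis3, Nr2f2, Nr2f6 and Tcf4 were higher in skull and Meis1, Pbx3 and Tcf3 lower. Tcf4, an E protein that pairs with Twist factors, had a log2 difference of 0.63 ± 0.12 (SE, limma adjusted p = 0.0041), and Pbx3, a partner of Meis proteins, had -0.47 ± 0.08 (SE, limma adjusted p = 0.003). Over all 37 probe sets of these 22 genes, 2 were called higher (Zic4 and Nr2f2, above) and 0 lower.

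Among 54 other factors of cranial crest and mesenchyme, 32 were measured, and 3 were called higher and 1 lower, with a median log2 difference of 0.17. Snai1, which drives crest cells out of the epithelium, had signals of 149 ± 25.8 (SD, n = 4) in skull and 71.1 ± 7.60 (SD, n = 5) in limb, a log2 difference of 1.06 ± 0.13 (SE, limma adjusted p = 0.000477). Uncx, a homeodomain factor of somites, had 1.35 ± 0.37 (SE, limma adjusted p = 0.0311) with overlapping sites. All its skull signals lay below the receptor maximum, and 4 of 5 limb arrays were at or below the absent controls. Rfx4 had 1.61 ± 0.20 (SE, limma adjusted p = 0.000497), but its mean skull signal of 7.88 was below the level of the absent controls. Phox2a, a factor of autonomic neurons, was lower by -1.37 ± 0.37 (SE, limma adjusted p = 0.0282), also near background, with means of 3.64 and 10.01. A second probe set of Sox6, 1393376_at, was called lower as well, at -1.64 ± 0.13 (SE, limma adjusted p = 6.84e-05). By the brightest probe set, further genes had a limma adjusted p below 0.05 but were under 2-fold. Gli2, Irx3 and Prrx1 were higher in skull, at 0.96, 0.75 and 0.74, and Sox6, Eya1 and Ets1 lower, at -0.99, -0.92 and -0.44.

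Genes whose pattern over the 9 arrays was most like that of the called members were found by the root mean square difference of log2 signals centred on each gene's mean, among 12905 candidates. For 1378165_at of Twist1 these were Mmp13, a collagenase, at 0.065 and Pcolce, an enhancer of procollagen processing, at 0.068. Its other probe set, 1387750_at, was followed by Rrbp1 at 0.11 and Zfhx4 at 0.11, and Dlx5 by Gpx3 and Sdc1, both at 0.099. The nearest to Alx1 were Fap at 0.30 and Ccl9 at 0.30. Meis2 had Gal, a neuropeptide, at 0.58 and Mlana, a melanosome protein, at 0.63. Centring over both sites left the skull and limb difference in the measure, so genes with a similar difference were favoured. Mmp13 and Pcolce had log2 differences of 1.21 and 1.24, beside 1.21 for 1378165_at. Nearness therefore does not show shared variation within a site. The distances were larger for Alx1 and Meis2 than for Twist1 and Dlx5. The measure is not scaled to a gene's spread, and candidates had to reach the median signal at their higher site. Larger distances for dim genes therefore follow from the method and say nothing about the genes.

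Markers of other cells that the dissection could have carried were read beside the 10 genes. Of 11 meningeal markers, 1 was called higher in skull, Ptgds at a log2 difference of 2.25 ± 0.53 (SE, limma adjusted p = 0.0156), with the list mean at 3.06 to 3.80 (log2) in skull and 3.22 to 3.64 in limb. The brightest of that list, Crabp2 and Igfbp2, had 0.35 ± 0.23 and -0.22 ± 0.47 (SE). Of 14 neuron and glia markers 0 were called higher and 1 lower (Aqp4), with means of 2.46 to 3.21 and 2.70 to 3.11, and 11 of 14 stayed below the receptor maximum on every array. The brightest of them, Slc1a3 and Gfap, had -0.58 ± 0.12 and -0.05 ± 0.24 (SE). The Schwann list had 1 of 7 higher (S100b, 1.28 ± 0.17, beside Cnp at -0.22 ± 0.10), with means of 4.75 to 5.23 and 4.46 to 5.03. The crest-derived melanocyte list had 1 of 5 higher, Mlana at 41.5 ± 6.22 (SD, n = 4) against 2.18 ± 0.873 (SD, n = 5), with means of 3.07 to 4.07 and 2.42 to 2.99, while Pmel had 16.6 and 17.1. Skin had 0 of 9 called, with Sfn at -0.41 ± 0.25 and Krt10 at 0.09 ± 0.26, and tooth had 1 of 3 called higher (Ambn, 1.79 ± 0.40), with Amelx at 1.40 ± 0.54 and Dspp at -0.10 ± 0.35 not called (SE).

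Signals of muscle and red cell genes were higher in limb and those of osteoclast genes higher in skull. Of 12 muscle genes 11 were called lower in skull, with Acta1 at 11.03 ± 5.63 against 3441 ± 902 and Myl1 at 10.4 ± 3.59 against 2114 ± 845 (SD, n = 4 and 5). All 7 erythroid genes were lower, with Ahsp at a log2 difference of -1.11 ± 0.11 and Alas2 at -1.01 ± 0.10 (SE). All 5 osteoclast genes were higher, with Acp5 at 1.71 ± 0.13 and Ctsk at 1.43 ± 0.12 (SE). Of 8 cartilage genes, 2 were called lower in skull (Comp and Chad), while the brightest were not called, Col11a2 at a log2 difference of 0.53 ± 0.12 (SE) and Acan at signals of 66.6 ± 17.7 against 132 ± 30.8 (SD, n = 4 and 5). The log2 ratio of 3′ to 5′ Gapdh control signals was 0.277 to 0.594 in skull and 0.209 to 0.372 in limb. The part of these differences in cell makeup and RNA quality in the signals of the 10 genes was not tested.

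**Figure D5:**
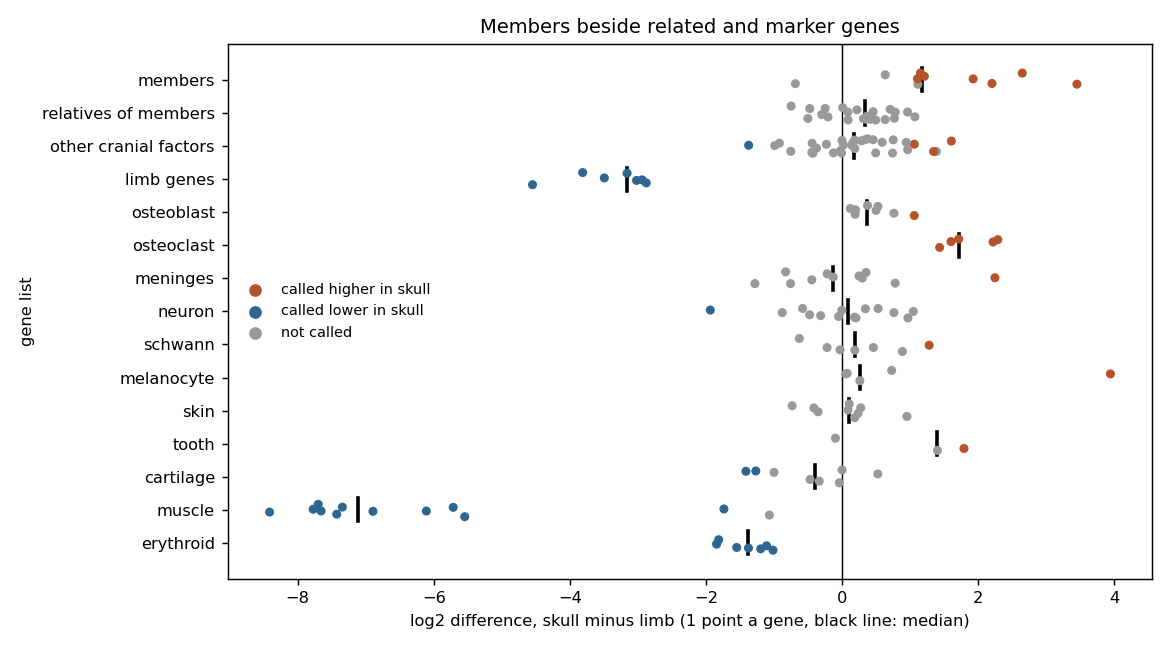
Log2 difference, skull minus limb, of every measured gene of each list, 1 point a gene by its brightest probe set, orange where called higher in skull, blue where called lower and grey where not called; the black line is the list median. The 10 members have a median of 1.18, their relatives 0.34 and the other cranial factors 0.17.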

How the data were processed

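Total RNA of 9 bone samples was amplified and biotin-labelled in a single cycle and hybridised to Affymetrix rat whole-genome arrays. The deposited values were linear intensities, 1 for each probe set of each array, which the authors computed with MAS5 (version not given in the sources used here) and scaled to a common trimmed mean. The study normalised these further, by chip and by gene, and called genes by a Benjamini-Hochberg adjusted test with a 2-fold threshold. The table held 31099 probe sets, and 57 controls were left out of tests.

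Samples were grouped by title and source name. Each array was divided by its median and multiplied by the mean of the medians (array medians 33.0 to 36.6). Signals were floored at the 10th percentile of all values (2.51), taken to log2 and compared with limma 3.58.1 under R 4.3.3 (lmFit, eBayes with an intensity trend), two-sided and adjusted over 31042 probe sets. For genes at the floor the fold depends on it in both directions. Alx1 was 6.27-fold on this scale, 10.3-fold by the ratio of mean signals without a floor, and 1.97-fold with the floor at the absent controls. The 4 and 5 arrays, each a pool of animals, limit the precision, and the p-values measure the spread between these pools. Gene names came from the platform annotation, updated by gene identifier to RefSeq (GRCr8, names and promoters only), and 436 probe sets with several symbols and 9780 with none named no gene. Where a gene had several probe sets the one with the highest mean log2 signal stood for it in lists and pairs. No deposited column was left unused.

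The 10 genes, the other gene lists, the pairs and the markers were chosen with earlier results of these data known. All 10 genes were named with every probe set. Of the relatives and the other cranial factors, called genes (at most 8 a list) and genes of the pairs were named, of each marker list the 2 brightest, and of genes with a similar pattern the nearest 2 for the 5 probe sets with the smallest adjusted p. Every other gene named was chosen after its values were seen. A pair of Alx1 and Alx4 was planned and was not analysed here. The alternatives were other normalizations, floors and filters, a plain prior variance, array weights, the methods' t-test, a replicate block, ulna 5 alone and each array left out, and, added after seeing the data, a floor at receptor signals, a scaling to osteoblast genes, and other probe sets for the pairs. The limma calls were tested on simulated data without a floor, with changes planted only in probe sets above the median signal. That test covers neither dim genes at the floor nor the permutation of pairs.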

Additional observations from a re-analysis of the deposited data

Results flagged for a closer look

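In 3 of the 26 sets of signals of 1 probe set at 1 site, a single array stood apart from the rest by Dixon's ratio (its gap to the nearest array over the range). For normally distributed values chance gives about 1 in 20. That rate does not hold for sets with arrays set to the floor, as in all 3 cases here. For Alx1 ulna 1 was high with a ratio of 1, its signal being 3.12 while the other 4 limb arrays were set to the floor. Any signal above the floor would have given that ratio. For Meis2 ulna 3 was high with a ratio of 0.79 and a signal of 8.67, near that of the absent controls. For the Msx2 probe set 1391953_at ulna 5 was low with a ratio of 0.744 and a signal of 1.09. All 3 lay at or near background, and none was a skull array.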

How the results depend on the processing

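The count of probe sets called higher in skull was 8. It stayed within 1.5 times of this, at 6 to 9, with deposited signals, quantile normalization, floors at the 25th percentile (10.02) or the absent controls, no intensity trend, array weights, the methods' t-test and the replicate block, a fit that leaves out ulna 5 (8 calls). A filter on dim signals kept probe sets that reached the median signal at their brighter site, which Meis2 did in skull only. Among the 6 probe sets it left, 5 were called higher, beside 4.21% of all those kept. The count was 5 with log2(signal + 16), where Alx1, Zic1 and Nr2f1 came to 0.90, 0.82 and 0.79. It was 2 with ulna 5 alone, 4 with a floor at the receptor maximum and 4 with arrays scaled to osteoblast genes. Leaving out each array in turn gave 7 to 9. The count called lower was 0 in every fit listed here.

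Signs turned for 1371292_at of Msx2 with ulna 5 alone (0.17), for Nr2f1 over Nr2f2 with the 25th percentile floor (-0.0783), for Zic1 over Zic4 (-0.10) and Msx1 over Msx2 (-0.0271) with other probe sets, and for Twist1 over Twist2 (-0.15) and Dlx5 over Dlx3 (-0.0106) without ulna 5, with the same values with and without the replicate block. Leaving out arrays gave -0.22 to 0.43 for Twist1 over Twist2 and -0.0185 to 0.11 for Dlx5 over Dlx3. The causes of the other turns were not tested. With the block the exact test of 6 pairs cannot pass after adjustment. With any array left out Meis2 over Meis1 and Zic1 over Zic4 had adjusted p of 0.0536 to 0.107. Fewer splits remain there, so the smallest exact p is larger and these values do not show dependence on single arrays. The changes themselves stayed at 4.05 to 4.54 and at 1.10 to 1.63. Arrays of the same number deviated together with correlations of -0.00942 to 0.0420, and those of unlike numbers with -0.0406 to 0.0219. The study's methods name skull and limb RNA together under the same groups of rats, so arrays of both sites may share animals. The main fit and the exact tests treated the arrays as independent. No source said whether the numbers pair the samples, and correlations this near 0 cannot tell. On the same 8 arrays Twist2 was called without the block (adjusted p = 0.0437, 9 calls) and not with it (adjusted p = 0.131, 8 calls), and no other member's call changed.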
